A study of Mus musculus with 2 samples.

Results

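The genes of the cytosolic ribosomal proteins were examined in leukocytes from mouse tumours of intrahepatic cholangiocarcinoma (iCCA), which arises from bile duct epithelium within the liver. The members were selected on gene symbol and on their summed counts: of 84 symbols that named a cytosolic ribosomal protein, the 82 with at least 100 unique molecular identifiers (UMIs, one per captured transcript molecule) over both libraries were kept, out of 31253 genes. The UMI totals are therefore given as a description. Rpl3l lay just inside that limit, with 83 UMIs in MOCK and 86 in NAV, and Rpl39l (18 and 13) and Rpl10l (0 and 0) lay outside it. The 82 members comprised 33 genes of the small (40S) subunit and 49 of the large (60S) subunit.

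All mice were C57BL/6 and carried tumours raised by hydrodynamic injection of transposon vectors for Myr-AKT, a membrane-bound active AKT kinase, and YAPS127A, an active form of the transcriptional regulator YAP. From day 7 the NAV group received NAV2729, an inhibitor of ARF GTPase activation, at 30 mg/kg every other day for 7 days, and the MOCK group received the mock treatment. CD45+ cells were sorted and run on the BD Rhapsody microwell platform as 1 pooled library per group, from 6 tumours per group by the series' design text or from 3 paired tumours by its protocol. The animals of a pool cannot be told apart. With 1 library per group no test between treatments was possible, so every difference below describes these 2 libraries and has no replicate check, and intervals cover counting error only. MOCK held 45976676 UMIs in 10863 cell barcodes and NAV 31454031 in 10465, with medians of 3840 and 2169 UMIs per barcode, and 5 barcode sequences occurred in both. Cells were assigned to 12 leukocyte classes of at least 50 cells per library from marker genes, with the ribosomal protein genes left out of the clustering. Names stand for cells that resemble the class by its transcripts, since no surface protein other than CD45 was used. In 8 large classes each library had at least 200 cells. Levels are given as CPM, a gene's UMIs scaled to the same total in every class or library. Ptprc, the gene of CD45, lay between 601 and 1568 CPM in the 8 large classes of MOCK and between 639 and 1493 CPM in those of NAV.

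Ribosomal proteins form the protein part of the ribosome and are needed in nearly equal numbers in each particle. Their messenger RNAs usually begin with a run of pyrimidines, the 5′ terminal oligopyrimidine (TOP) tract, through which growth signals from the kinase mTORC1 control their translation together. Naive lymphocytes and other small resting cells typically give a large share of their transcripts to these genes, and mature neutrophils a small one.

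The annotated starts of members are shown because the TOP tract is the best known sequence shared by these genes, and because it can be compared between members that did and did not differ between the libraries. Each line gives 30 bases, 15 before and 15 from the RefSeq start on GRCm38.p6, and capitals mark a C followed by 4 or more C or T that begins within 3 bases of that start on the sense strand. The first 8 members were lower in NAV in every large class, and the last 4 were among those with the highest ratios.
Rps19: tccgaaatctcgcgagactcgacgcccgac
Rps15: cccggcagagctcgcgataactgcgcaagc
Rpl18: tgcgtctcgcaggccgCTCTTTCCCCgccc
Fau: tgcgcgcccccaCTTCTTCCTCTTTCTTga
Rpl28: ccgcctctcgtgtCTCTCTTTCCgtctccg
Rpsa: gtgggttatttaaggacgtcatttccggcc
Rplp2: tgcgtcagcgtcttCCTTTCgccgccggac
Rps9: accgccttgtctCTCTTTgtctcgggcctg
Rpl11: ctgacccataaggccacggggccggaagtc
Rpl10a: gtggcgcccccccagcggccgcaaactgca
Rpl7a: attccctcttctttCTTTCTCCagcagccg
Rpl12: ggcggagcaggatccgtCTTTTCggctttc

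These windows lie at chr7:24884577-24884606 for Rps19, chr10:80292416-80292445 for Rps15, chr7:45718056-45718085 for Rpl18, chr19:6057932-6057961 for Fau and chr7:4792950-4792979 for Rpl28. They lie at chr9:120127751-120127780 for Rpsa, chr7:141447636-141447665 for Rplp2 and chr7:3704026-3704055 for Rps9, all on the plus strand. Those of Rpl10a (chr17:28328456-28328485), Rpl7a (chr2:26910792-26910821) and Rpl12 (chr2:32961697-32961726) are on the plus strand too, and that of Rpl11 (chr4:136053379-136053408) is on the minus strand. A RefSeq start window was at hand for 62 members, of which 26 (41.9%) held such a run, against 15.7% of the 3664 genes with a window among those measured in every large class. Of the members lower in NAV in every large class 5 of 8 with a window held it, and of the others 21 of 54. A window without the run says only that these letters are not at that annotated start.

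The members split into a small set that was far lower in NAV and a large set that was near equal in both libraries outside neutrophils. A member was called lower or higher in a class at a difference of 0.5 on the log2 scale (1.41-fold) of its CPM, among genes with at least 50 UMIs in the class over both libraries. Of the 80 members measured in all 8 large classes, 12 were lower in NAV in every one of them: Rps19, Rps15, Rpl18, Fau, Rpl8, Rpl28, Rpsa, Rps14, Rplp1, Rplp2, Rpl29 and Rps9. That is 15% of the members, against 1.8% of the 4505 genes measured in all 8 classes. No member was higher in every large class, as was no gene at all (0%). The median over members of their median ratios was 0.045, with 0.043 over all 4505 genes. Among the 12 the median was -1.97, a 3.91-fold lower level in NAV, and among the other 68 it was 0.057, with 56 of those medians within 0.25 of 0. The 12 comprised 6 genes of each subunit.

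**Figure D1:**
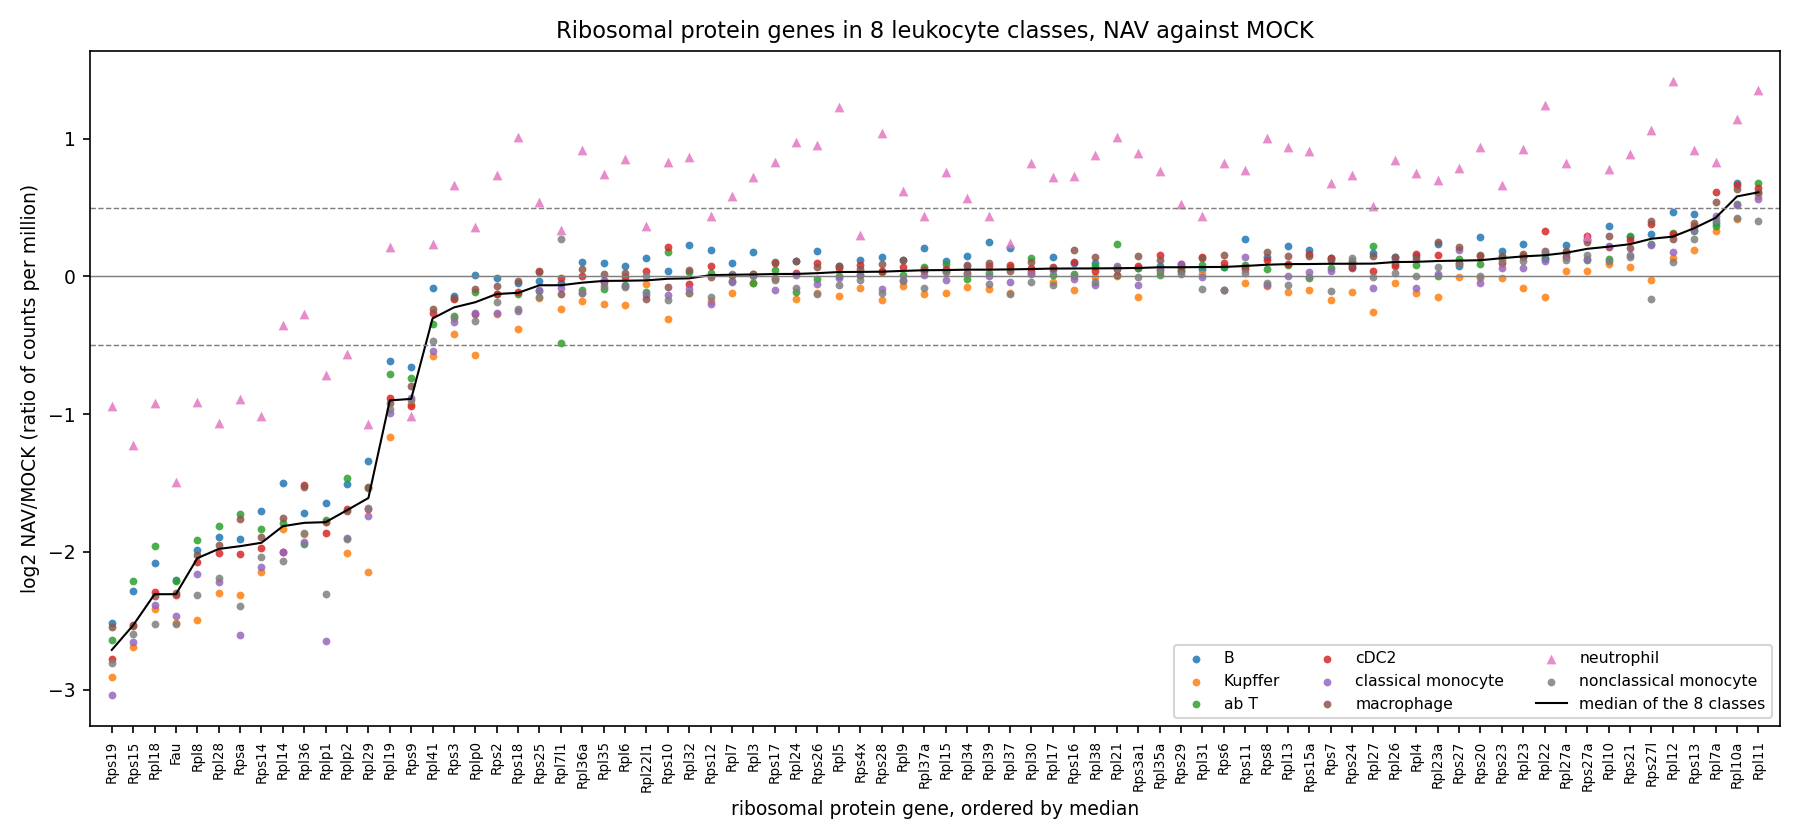
Log2 NAV/MOCK ratio of CPM (vertical axis) of the members measured in all 8 large classes and reported here, ordered along the horizontal axis by their median, with 1 point per class, triangles for neutrophils and dashed lines at 0.5 and -0.5. The members at the left lie far below the rest in every class, and the neutrophil points lie above the other classes for all members but Rps9. This order of classes was not counted over all genes.

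Rps19, a 40S protein whose mutation is the commonest cause of Diamond-Blackfan anaemia, had the lowest ratios. It had 22019 UMIs in MOCK (479 CPM) and 2499 in NAV (79.4 CPM), over all barcodes. By class its CPM ran in MOCK from 64.7 in neutrophils to 892 in B cells and in NAV from 33.7 to 156 in the same classes. Its log2 ratio was -3.04 (-3.28 to -2.81) in classical monocytes, -2.91 (-3.25 to -2.58) in Kupffer cells, the resident macrophages of liver sinusoids, and -0.94 (-1.27 to -0.61) in neutrophils. Its median was -2.71, a 6.55-fold lower level, and the counts of all 8 classes stood lower in NAV.

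Rps15, a 40S protein near the decoding site, had 14812 UMIs in MOCK and 2000 in NAV, 322 and 63.6 CPM. Its ratios ran from -2.69 in Kupffer cells to -1.22 in neutrophils. Fau, which encodes a ubiquitin-like protein fused to the 40S protein eS30, had 23324 and 3480 UMIs, 507 and 111 CPM. Fau differed from most members in its spread over classes: in MOCK its CPM ranged from 342 in neutrophils to 656 in conventional type 2 dendritic cells (cDC2), and its ratios ran from -2.52 in nonclassical monocytes to -1.50 in neutrophils.

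Rpsa, the 40S protein also known as the laminin receptor, had 15092 UMIs in MOCK and 2771 in NAV, 328 and 88.1 CPM. Its ratios ran from -2.60 in classical monocytes to -0.89 in neutrophils. Rps14, a 40S protein whose gene lies in the region lost in human 5q- syndrome, had 86713 and 16648 UMIs, 1886 and 529 CPM. Its ratios ran from -2.14 in Kupffer cells to -1.01 in neutrophils.

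Rps9, a 40S protein at the mRNA entry channel, was lower by a smaller and steadier amount. It had 109089 UMIs in MOCK and 43181 in NAV, 2373 and 1373 CPM, the highest MOCK level of all members. Its ratios ran only from -1.02 (-1.08 to -0.95) in neutrophils to -0.66 (-0.73 to -0.59) in B cells. It was the single member of the 80 whose neutrophil ratio did not lie above those of all 7 other large classes. How many of all genes had their highest ratio in neutrophils was not counted. The median ratio of all genes was 0.34 in neutrophils, against -0.045 to 0.026 in the other large classes.

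Among the 60S proteins Rpl18 had 20906 UMIs in MOCK and 3188 in NAV (455 and 101 CPM) and ratios from -2.52 in nonclassical monocytes to -0.92 in neutrophils. Rpl8, which lies by the peptidyl transferase centre, had 25791 and 4352 UMIs (561 and 138 CPM) and a median of -2.05. Rpl28 had 34853 and 6065 UMIs (758 and 193 CPM) and a median of -1.98. Rpl29 had 9556 and 2049 UMIs (208 and 65.1 CPM) and a median of -1.61. All of these stood lower in NAV in each of the 8 classes.

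The P stalk, the flexible arm of the 60S subunit that recruits translation factors, was split. Its base protein Rplp0 had 31880 UMIs in MOCK and 19158 in NAV, 693 and 609 CPM, and a median ratio of -0.19. The 2 proteins that bind this base had far lower ratios: Rplp1 had 52588 and 9638 UMIs (1144 and 306 CPM) and a median of -1.78, and Rplp2 had 50013 and 11110 UMIs (1088 and 353 CPM) and a median of -1.70. Rplp1 was, with Rps19 and Rpsa, 1 of the 3 members with the widest range over classes, from -2.64 in classical monocytes to -0.72 in neutrophils.

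**Figure D2:**
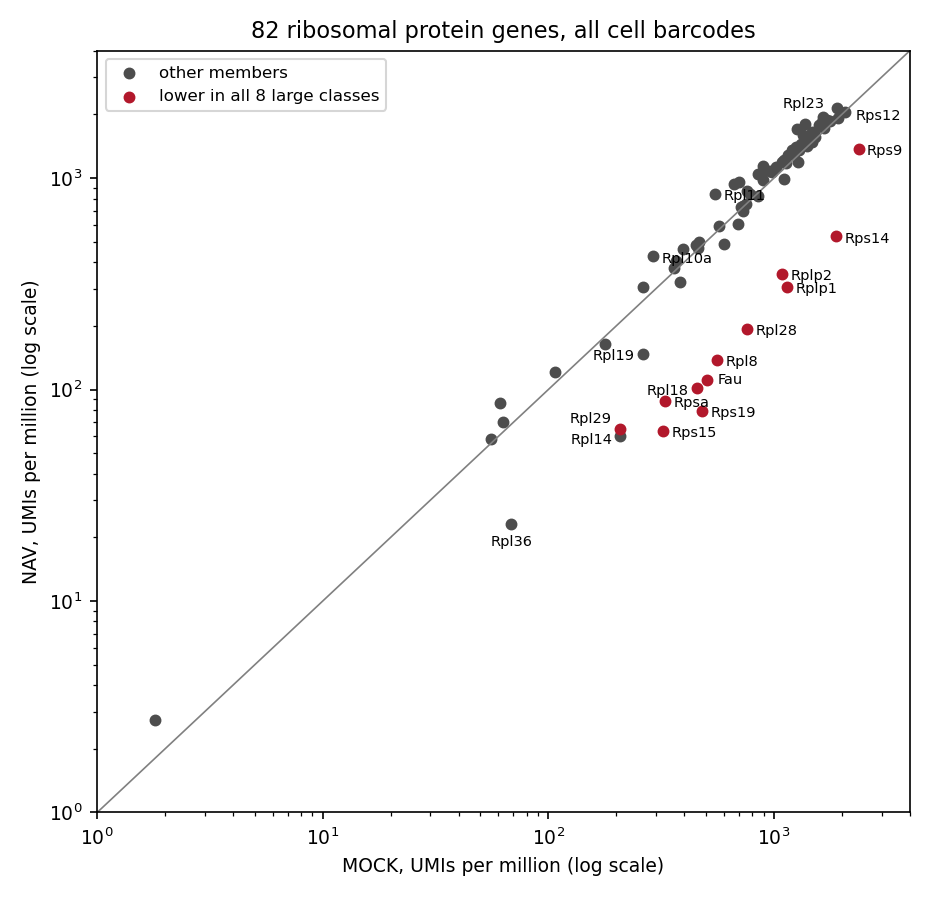
CPM in MOCK (horizontal) and NAV (vertical), over all cell barcodes and on log scales, for the 82 members, with the line of equal levels and the 12 members lower in every large class in red. The red points lie below the line at low and high levels alike, from Rpl29 (208 and 65.1) to Rps9 (2373 and 1373). Rpl14, Rpl36 and Rpl19 lie below it too and were not called lower in neutrophils, where their log2 ratios were -0.35, -0.27 and 0.21.

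The members that missed the set of 12 only through neutrophils were Rpl14, Rpl36 and Rpl19. Rpl14, a 60S protein, had 9582 UMIs in MOCK and 1901 in NAV (208 and 60.4 CPM), a median of -1.81 and a neutrophil ratio of -0.35 (-0.78 to 0.07). Rpl36 had 3146 and 731 UMIs (68.4 and 23.2 CPM), a median of -1.79 and a neutrophil ratio of -0.27 (-0.89 to 0.35). Rpl19, which lies at the exit of the nascent peptide tunnel, had 12079 and 4634 UMIs (263 and 147 CPM), a median of -0.90 and a neutrophil ratio of 0.21 (-0.11 to 0.54). With neutrophils left out, 15 of 81 members were lower in each of the 7 remaining large classes, against 2.48% of 4628 genes.

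At the other end no member reached 0.5 in all 8 classes. Rpl11, a partner of 5S ribosomal RNA that binds the p53 regulator MDM2, had 25154 UMIs in MOCK and 26546 in NAV (547 and 844 CPM), and its ratios ran from 0.40 in nonclassical monocytes to 1.35 in neutrophils, at 0.5 or more in 7 of 8. Rpl10a had 13398 and 13392 UMIs (291 and 426 CPM) and ratios from 0.42 to 1.14, at 0.5 or more in 6. Rpl7a had a median of 0.43, Rps13 of 0.35, and Rpl12, Rps27l, Rps21, Rpl10 and Rps27a of 0.29, 0.27, 0.23, 0.22 and 0.20. Rpl13a was not measured in every class and had 2800 and 2719 UMIs (60.9 and 86.4 CPM).

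Outside neutrophils most of the remaining members were close to equal. Of the 68 outside the set of 12, 58 stayed within 0.5 of 0 in all 7 large classes other than neutrophils. The 3 members with the most UMIs over both libraries were Rps12, Rpl23 and Rps9. Rps12 had 95000 UMIs in MOCK and 64607 in NAV, 2066 and 2054 CPM, and a median ratio of 0.0092. Rpl23 had 87566 and 67145 UMIs, 1905 and 2135 CPM, and a median of 0.15.

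Members with related positions in the ribosome did not share 1 ratio. Of the 6 proteins of mRNA entry and decoding, Rps15, Fau and Rps9 were lower in every large class, while Rps2, Rps3 and Rps23 had medians of -0.13, -0.23 and 0.13. Of the 7 tunnel exit proteins none was lower in every class: Rpl19 had the median of -0.90 given above, and Rpl17, Rpl23a, Rpl26, Rpl31, Rpl35 and Rpl39 lay between -0.033 and 0.11. Of the partners of 5S RNA, Rpl5 had a median of 0.032 and Rpl11 of 0.61. Of the ubiquitin-like fusions, Fau had -2.31 and Rps27a, made as ubiquitin joined to eS31, had 0.20. Of the 16 listed genes mutated in Diamond-Blackfan anaemia, Rps19 was the single one lower in every class, and the median of the list was 0.066. The paralogue copies measured everywhere, Rpl7l1, Rpl22l1 and Rps27l, had medians of -0.064, -0.029 and 0.27. Reads of near-identical copies such as Rpl36a and Rpl36al, and of processed pseudogenes, may have been shared between rows in the counting, so ratios of single copies are uncertain.

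Class by class, counts at 0.5 were as follows, with the share of all genes in the class that passed the same limit. In B cells 15 of 81 members were lower (11.6% of all genes) and 4 higher (4.13%). In αβ T cells 15 were lower (10.4%) and 2 higher (7.47%). In cDC2 15 were lower (11.5%) and 4 higher (7.86%). In classical monocytes 16 were lower (13.2%) and 2 higher (5.29%). The lymphoid, dendritic and monocyte classes thus had nearly the same number of low members, each above the share of all genes.

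In nonclassical monocytes 15 members were lower (12%) and 0 higher (6.58%). In macrophages 15 were lower (13.3%) and 4 higher (5.22%). In Kupffer cells 18 were lower (14%) and 1 higher (5.72%), and the median of the measured members was -0.12, against -0.022 over all genes. In neutrophils 12 of 80 were lower (10.6%) and 54 higher (38.3%). Over the 80 members the ratios of 2 large classes had a Pearson r between 0.91 and 0.995 over the 28 pairs of classes, and over the 68 members outside the set of 12 between 0.67 and 0.98. The 68 still included Rpl14, Rpl36 and Rpl19 (medians of -1.81, -1.79 and -0.90), and r without these was not computed. All pairs share the same 2 libraries.

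The set of 12 was also lower in the 4 smaller classes, together with a few other members. All 12 were lower in natural killer cells (median -1.94, against 10.5% of all genes lower), in conventional type 1 dendritic cells (-2.05, 12.4%), in γδ T and IL-17-type T cells (-2.12, 12.7%) and in plasmacytoid dendritic cells (-2.63, 13.4%). Counting every member, 16 of 80, 16 of 81, 16 of 80 and 18 of 79 were lower in these classes in turn, so that 4, 4, 4 and 6 members outside the set were lower too.

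Summed over all 82 members, the share of UMIs differed far more between classes than between libraries. In MOCK it was 13.9% (exact 95% Clopper-Pearson interval 13.82 to 13.99) in αβ T cells, 11.6% in B cells, 10.4% in cDC2, 8.01% (7.98 to 8.04) in classical monocytes, 7.95% (7.91 to 7.99) in nonclassical monocytes, 7.67% in macrophages, 5.73% in Kupffer cells and 1.76% in neutrophils. The intervals of the 2 monocyte classes overlapped, and those of the other neighbours in this order did not. In NAV the shares were 13.3%, 11.9%, 10.02%, 7.20%, 7.09%, 7.53%, 4.93% and 2.52% in the same order of classes, so that macrophages stood above both monocyte classes.

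The log2 ratio of the shares was 0.029 in B cells, -0.063 in αβ T cells, -0.050 in cDC2, -0.15 in classical monocytes, -0.17 in nonclassical monocytes, -0.026 in macrophages and -0.22 in Kupffer cells. In neutrophils it was 0.52 (0.51 to 0.54). The median over the 8 classes was -0.056. The set of 12 made up 13.2% of all member UMIs in MOCK and 4.49% in NAV. Its own share had log2 ratios from -1.82 in Kupffer cells to -0.99 in neutrophils, and that of the other members from -0.084 to 0.73 in the same 2 classes.

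**Figure D3:**
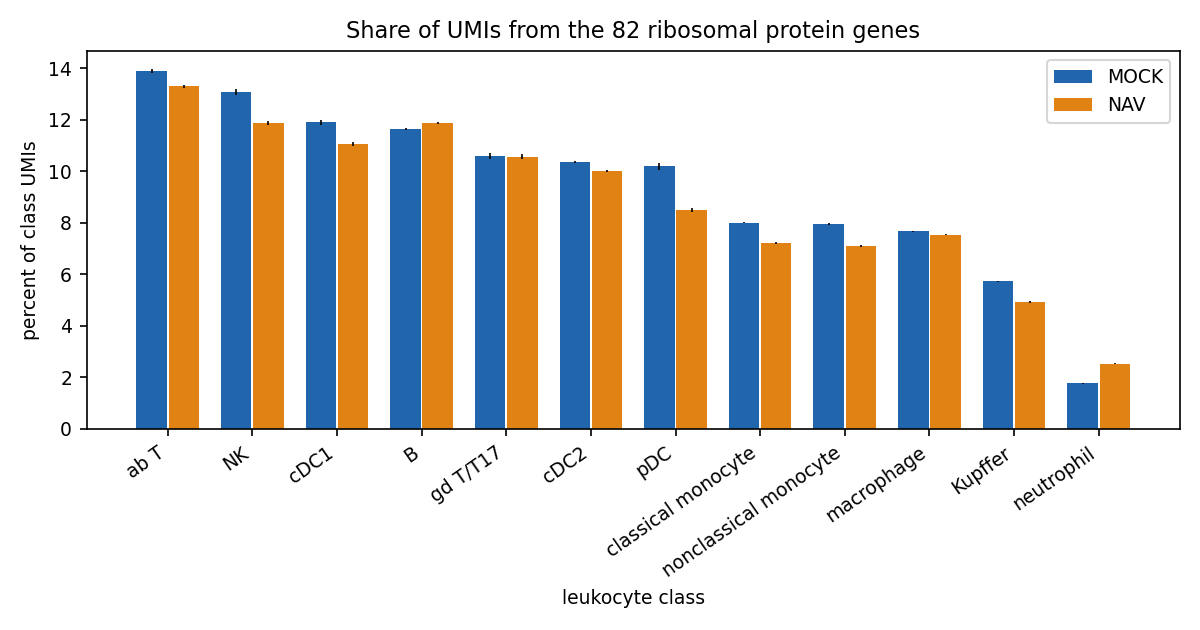
Percent of a class's UMIs that came from the 82 members (vertical axis, from 0) in MOCK and NAV for 12 leukocyte classes, with exact 95% intervals for counting error. αβ T cells are highest (13.9% and 13.3%) and neutrophils lowest (1.76% and 2.52%), and neutrophils are the class with the widest gap in favour of NAV.

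Neutrophils stood apart from the other classes in all genes and not in these members alone. The median ratio of the 7373 genes measured in them was 0.34, against -0.045 to 0.026 in the other large classes. With that median subtracted, 25 members were higher and 14 lower, in place of 54 and 12. The share of all genes past the same limit after the subtraction was not counted. Before it, the 80 measured members had a median of 0.73 and an upper quartile of 0.89, against 0.34 and 0.71 over all genes. The class was also made of different clusters in each library. Clusters G3 (led by Retnlg, Asprv1 and S100a9) and G4 (Retnlg, S100a9 and Ngp) held 28.1% each of MOCK neutrophils and 8.49% and 7.94% of NAV neutrophils. Clusters G5 (Cxcr2, Mmp9 and Siglecf) and G6 (Il23a, Acod1 and Mmp9) held 8.76% and 3.40% in MOCK and 26.8% and 27.0% in NAV.

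In the 6 neutrophil clusters with at least 50 cells per library, the other members had medians closer to 0 than the pooled class. The median of the low members that were measured lay further from 0 in all but G6. Fewer members were measured in a cluster than in the pooled class, so these medians are not over the same genes. The median of the other members was 0.13 in G4, 0.21 in G3, 0.47 in G1, 0.56 in G0 and in G5, and 0.70 in G6, against 0.77 in the pooled class. The median of the low members that were measured was -1.69 in G3 (8 of the 12 measured), -1.66 in G4 (8), -1.43 in G0 (10), -1.26 in G1 (9), -1.03 in G5 (8) and -0.91 in G6 (8), against -0.98 in the pooled class. The share of UMIs from all members was 1.55% in MOCK and 1.56% in NAV in G3, and 1.88% and 2.71% in G6. In macrophages, where cluster M2 (Spon1, H2-DMb1 and Tmem176b) held 30.4% of MOCK and 52.6% of NAV cells, the medians of the 12 lay between -2.09 and -1.84 in the 4 clusters, and in 3 αβ T clusters between -1.99 and -1.73. The 12 were picked on the summed counts of these same classes, so low medians in their clusters are not a separate check.

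**Figure D4:**
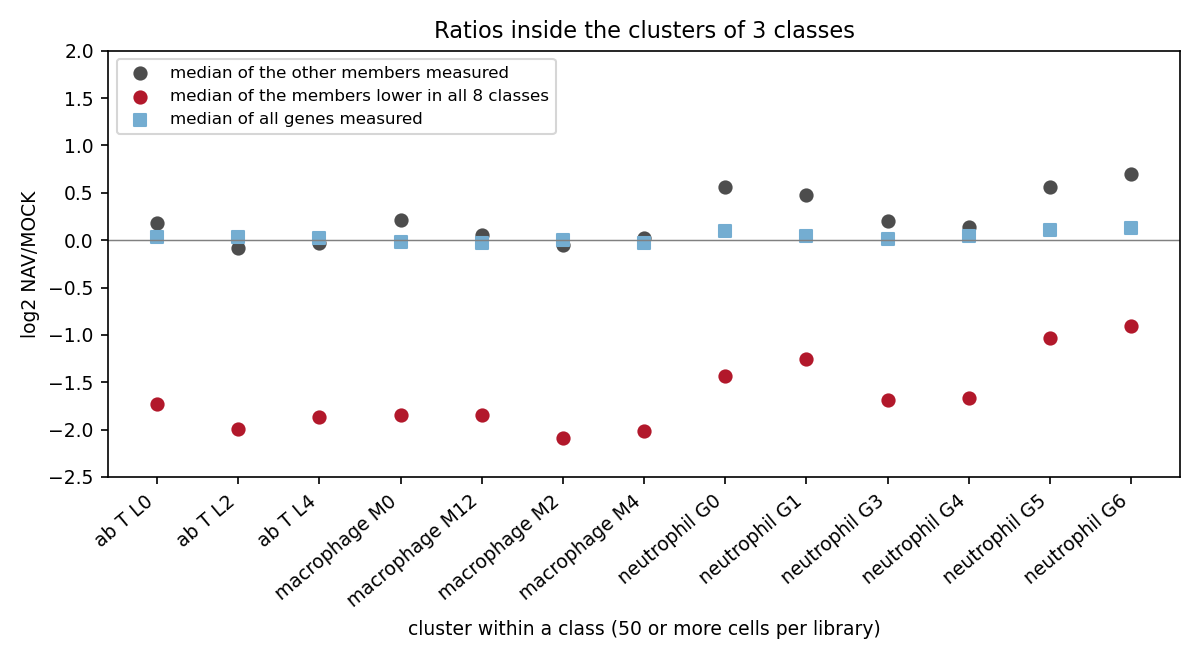
Median log2 NAV/MOCK (vertical axis) inside each cluster of αβ T cells, macrophages and neutrophils with at least 50 cells per library, for the measured members of the set of 12 (red), the other members (grey) and all genes (blue squares). The red points lie below -0.9 in every cluster, and the grey points lie near 0 except in neutrophil clusters G0, G1, G5 and G6. The set of 12 was picked on summed counts that include these cells.

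Markers of other cells in neutrophils moved in both directions. The summed level of the 10 neutrophil markers was 47694 CPM in MOCK and 22018 CPM in NAV, with 9 of 10 higher in MOCK. That of the 9 B cell markers was 48.0 and 84.4 CPM with 7 of 9 higher in NAV, that of the 8 CD8 T cell markers 25.4 and 21.5 CPM, and that of the 11 macrophage markers 411 and 304 CPM. No marker of these 4 lists was at 0 in neutrophils of either library. Median depth was 1285 UMIs in MOCK and 1168 in NAV neutrophils. The part of these markers in the neutrophil ratios was not tested.

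Base composition of the transcript ends moved with the ratios. The last 500 bases of the principal GENCODE transcript (GRCm38) had a median of 55.9% G and C in the set of 12 (45.4% in Rpsa to 58.4% in Fau) and of 48.2% in the other 68 (34.4% to 60.8%), against 42% in all genes measured. Of the 36 members at 50% or more, 9 were lower in every large class, and of the 44 below it, 3 were (Rpsa, Rpl28 and Rplp2). Over all genes these shares were 62 of 813 (7.63%) and 19 of 3662 (0.519%). High G and C content did not mark every such member: Rpl41 had 57.8% and a median ratio of -0.31, Rpl35 55.8% and -0.033, and Rps10 54.8% and -0.017. Spearman's rho between content and median ratio was -0.42 over the 80 members and -0.059 over 4475 genes, across genes of the same 2 libraries. The part of base composition in the ratios was not tested.

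**Figure D5:**
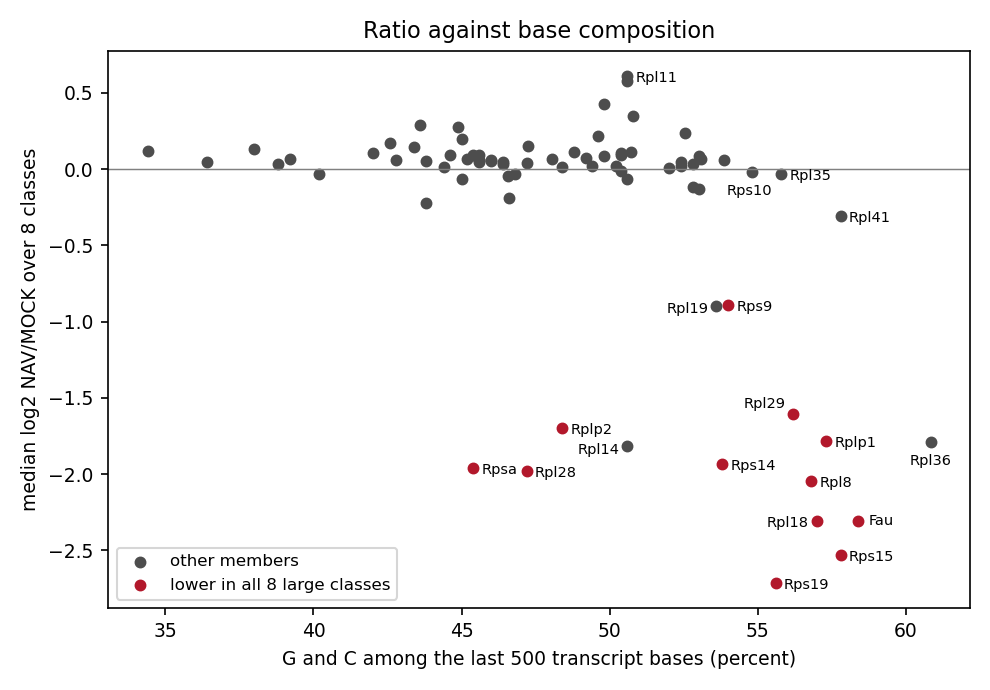
Median log2 NAV/MOCK over the 8 large classes (vertical axis) against the percent of G and C in the last 500 transcript bases (horizontal axis) for the members measured in all 8 classes and reported here, with the set of 12 in red. Below 45% there is no member of that set, and above 53% such members and members near 0 are both found, such as Fau (58.4%, -2.31) and Rpl41 (57.8%, -0.31).

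The 12 lay on 6 chromosomes, with 5 on chromosome 7 (Rps19, Rpl18, Rpl28, Rplp2 and Rps9) and 3 on chromosome 9 (Rpsa, Rplp1 and Rpl29). Chromosome 7 also held Rps13, whose ratios were among the highest. Small nucleolar RNAs lay inside 2 of the 12 and 27 of the other 68, another gene on the opposite strand overlapped 3 and 20, and median transcript lengths were 730.5 and 789.5 bases.

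Genes of other lists of translation were counted in the same way. With 1 called gene in a short list, its share is too uncertain to set against the background. Of 18 measured genes of the list of TOP mRNAs outside the ribosomal proteins, 1 was lower in every large class (background 1.8%, as above) and the median was 0.054. It was Eef2, the elongation factor that moves the ribosome along mRNA, with 30427 UMIs in MOCK and 8432 in NAV and a median of -1.29. The next lowest was Pabpc1, the cytoplasmic poly(A) binding protein (-0.053), and Rpl36al (0.21) was among the highest. Of 27 measured initiation and elongation factors, 1 was lower in every class (background 1.8%). It was Eif5a, which helps ribosomes past difficult peptide bonds, with 18155 and 5641 UMIs and a median of -1.06. Eif3d had a median of -1.11, with a neutrophil ratio of 0.26, and Eif3g (0.31) and Eef1e1 (0.37) were highest.

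Of 21 measured ribosome biogenesis genes, none was lower or higher in every class, and the median was 0.14. The lowest of the 21 were Mybbp1a (-0.58) and Ubtf, a factor of ribosomal RNA transcription (-0.53). The highest were Bop1 (0.26) and Fbl, the nucleolar methyltransferase fibrillarin (0.35). Outside the 21, in the large classes where each was measured, Rrp9 ran from -1.85 to -1.27 and Nob1 from 0.062 to 0.84. Of 32 measured genes of the mitochondrial ribosome, which is built from a separate set of proteins, none was called in every class and the median was 0.087. Mrpl4 (-0.54) and Mrps28 (-0.26) were lowest, and Mrpl9 (0.35) and Mrpl18 (0.44) highest.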

How the data were processed

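The values are UMI counts, deposited by the authors as whole numbers in 1 matrix per library. The tools named in the submitters' processing notes are Cell Ranger, fastp and STARsolo (2.7.10a), with mm10 as the build, and their order is not given. The cell filter asked for 500 UMIs, 200 genes and a mitochondrial share below 20%. Scrublet's automatic threshold marked 1 and 0 barcodes and had not worked, so cells scored above 0.25 (177 and 174) were removed, as were whole clusters (285 and 311 cells) whose median exceeded 0.1, which left 10308 and 9956 cells. Cells were clustered with scanpy 1.11.5 (2000 variable genes, 30 components, 15 neighbours, Leiden resolution 1.0, no batch correction) without the members. Clusters were named from marker lists, by rules set after the data were seen. A name needed at least 3 markers and passed further limits on their share and rank, and 1401 and 954 cells stayed unnamed. The largest unnamed cluster (led by Gpnmb, Mmp19 and Ecm1) held 1075 MOCK and 341 NAV cells. Another (Arg1, Spp1 and Ackr3) held 141 and 498. Neither is part of any class above. UMIs were summed per class and library and divided by the class total, with exact 95% intervals of the ratios conditional on the sum of both counts. The ratio code was checked on simulated data. The members and lists were chosen with earlier results of these data known. Named were the 10 members with the lowest and the 10 with the highest medians, the 3 with most UMIs, those called in every large class, those of the role lists, the 3 with the widest range, and the 2 lowest and highest genes of each other list. A few genes are not reported here, though counts include them. Genes were located by Ensembl identifier in GENCODE on GRCm38, where all 82 members were found.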

Additional observations from a re-analysis of the deposited data

How the results depend on the processing

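With 1 library per group no replicate could be left out, and no paired analysis was possible because each group had 1 library. The count of 12 members lower in every large class was within 1.5 times of that under all alternatives but a call at 1.0 on the log2 scale, which left 5 (Rps15, Fau, Rpl28, Rps14 and Rpl29). All 12 were shared with the main set under 13 of the 15 alternatives, and 10 were with at least 200 UMIs in a class, where fewer members (72) were measured. Median-of-ratios scaling and ratios minus the median of all genes each gave 14, with Rpl14 and Rpl36 added. These counts are of members alone. The share of all genes is given above for the main call and for the call without neutrophils. Under the other alternatives it is not given, so an excess of members over all genes is not shown there. The median log2 ratio of the summed share, -0.056, moved beyond its counting interval to -0.079 with the median of all genes subtracted, -0.039 with equal weight per cell, -0.11 with the stricter cell filter, -0.045 with doublets kept, -0.032 at resolution 2.0, -0.070 with members clustered on, -0.068 with libraries clustered separately and -0.033 after thinning to 1000 UMIs, for which the cause was not tested. Nonclassical monocytes were not a large class with doublets kept, at resolution 2.0 (as Kupffer cells), with members clustered on or with libraries clustered separately. Of the medians of single members recomputed under the alternatives, 1092 stayed within their counting interval and 17 moved beyond it, and none with a size of 0.5 or more changed sign. Leaving out neutrophils or Kupffer cells was chosen after seeing the data. Members with few UMIs, such as Rpl36 in neutrophils (42 and 51), have wide intervals. Median depth was lower in NAV over the whole library and in most large classes. It was not lower in B cells (1272 UMIs in MOCK and 1367.5 in NAV) or αβ T cells (2095.5 and 2119.5).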

Other observations

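Rows of ribosomal protein pseudogenes with a "-ps" symbol were not among the members. The 8 such rows held 2066 UMIs in MOCK and 1663 in NAV, against 3516981 and 2380288 for the 82 members.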
